A study of Homo sapiens with 6 samples.

Results

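The genes examined here encode the subunits, assembly chaperones, activators and inhibitor of the proteasome. They were chosen by symbol: every row of the deposited count table whose symbol consists of PSMA, PSMB, PSMC, PSMD, PSME, PSMF or PSMG followed by a number, which gave 48 of 56303 rows. The counts came from RNA-seq of SW480 cells, a line established from a human colon adenocarcinoma. A lentiviral hairpin was used to deplete RBM39, an RNA-binding protein that acts in pre-mRNA splicing, in 3 libraries (shRBM39, labelled RBM39 knockdown), and 3 further libraries came from cells with a nonsilencing hairpin (shCtrl, whose genotype is labelled WT). According to the methods of the study, the infected cells were selected with puromycin as stable clonal lines, and 3 replicate experiments were set up per group. Each group therefore stands for 1 hairpin in 1 cell line, and the p-values given here measure the spread between the libraries of such a line.

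The proteasome is the protease that degrades most ubiquitin-tagged proteins in the cytosol and the nucleus. Its core is a barrel of alpha and beta rings, and the proteolytic sites lie on the beta subunits PSMB5, PSMB6 and PSMB7, which PSMB8, PSMB9 and PSMB10 replace in the interferon-inducible immunoproteasome. A regulatory particle of a base, with a ring of ATPases, and a lid binds, deubiquitinates and unfolds the substrate. When proteasome activity falls short, the transcription factor NFE2L1 is known to raise the transcription of many subunit genes together through antioxidant response elements in their promoters.

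Total counts ran from 18042924 to 20428901 per library. Within each group the replicates differed by more than counting noise (a chi-square of 2.01 to 3.9 per degree of freedom), so all 6 libraries were kept as separate samples. RBM39 itself measured 441, 447 and 434 CPM (the share of a gene in the counts of its library, scaled with the TMM factors of edgeR) in shCtrl replicates 1 to 3 and 266, 275 and 292 CPM in shRBM39 replicates 1 to 3. Its log2 fold change was -0.67 (SE 0.04, adjusted p = 1.19e-16), and its RNA remained well detected in the knockdown libraries. The epithelial markers EPCAM, KRT8, KRT18, VIL1 and CDH1 were present in every library, with mixed directions. KRT8 (log2 fold change 0.43) and KRT18 (0.24) were called higher, VIL1 (-0.09) and CDH1 (-0.39) lower, and EPCAM (0.02) was not called. The colonic marker KRT20 was at or below 1.45 CPM in every library and was called higher in shRBM39 (log2 fold change 1.82, edgeR adjusted p = 8.38e-05). The intestinal factor CDX2 fell from between 21.2 and 22.4 CPM to between 4.64 and 5.56 CPM. Of 6 markers of other cells, 3 were called higher in shRBM39 at low levels (COL1A1, PECAM1 and DES), PTPRC had 0 counts, and the summed level of the list was 12.8 to 14 CPM in shCtrl and 21.5 to 24.9 CPM in shRBM39. The part of these markers in the results below was not tested.

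Promoter sequences are shown first because an element in the promoters of many subunit genes is known from earlier work. Whether it had a part in the changes below was not tested. RefSeq windows on GRCh38.p14, from 250 bases before to 50 bases after a transcription start, were found for 42 of the 48 genes. No entry was found for PSMA7, PSMB1, PSMB6, PSMB7, PSMD4 and PSMG3. The windows shown belong to PSMB3 and PSMD1, the genes with the highest log2 fold changes in shRBM39, and to PSME1 and PSMG4, which were lower. Capitals mark matches on either strand to TGACNNNGC, the core of the antioxidant response element, to TGACTCA, the AP-1 motif, or to CCAAT. In PSMB3 the capitals are 1 match to TGACNNNGC and 2 matches to CCAAT, in PSMD1 and PSME1 they are 1 match to TGACNNNGC each, and PSMG4 has no match.
PSMB3 (chr17:38752491-38752790, plus strand): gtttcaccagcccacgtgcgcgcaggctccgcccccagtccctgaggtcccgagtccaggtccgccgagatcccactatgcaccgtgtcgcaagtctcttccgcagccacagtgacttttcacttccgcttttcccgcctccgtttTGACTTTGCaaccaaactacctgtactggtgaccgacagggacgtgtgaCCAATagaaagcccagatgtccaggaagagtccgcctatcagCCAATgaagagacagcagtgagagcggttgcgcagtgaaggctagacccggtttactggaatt
PSMD1 (chr2:231056617-231056916, plus strand): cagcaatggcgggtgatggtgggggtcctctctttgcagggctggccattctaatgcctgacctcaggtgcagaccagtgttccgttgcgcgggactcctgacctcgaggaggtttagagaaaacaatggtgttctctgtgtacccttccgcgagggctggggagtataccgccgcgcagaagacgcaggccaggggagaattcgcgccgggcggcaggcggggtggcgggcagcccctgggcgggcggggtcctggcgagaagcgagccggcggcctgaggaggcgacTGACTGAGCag
PSME1 (chr14:24135944-24136243, plus strand): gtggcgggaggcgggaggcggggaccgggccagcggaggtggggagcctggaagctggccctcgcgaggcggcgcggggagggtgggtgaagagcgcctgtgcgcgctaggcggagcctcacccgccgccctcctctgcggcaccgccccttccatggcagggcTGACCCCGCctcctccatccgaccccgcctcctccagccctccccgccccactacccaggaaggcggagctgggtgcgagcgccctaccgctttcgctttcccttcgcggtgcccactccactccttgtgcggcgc
PSMG4 (chr6:3258697-3258996, plus strand): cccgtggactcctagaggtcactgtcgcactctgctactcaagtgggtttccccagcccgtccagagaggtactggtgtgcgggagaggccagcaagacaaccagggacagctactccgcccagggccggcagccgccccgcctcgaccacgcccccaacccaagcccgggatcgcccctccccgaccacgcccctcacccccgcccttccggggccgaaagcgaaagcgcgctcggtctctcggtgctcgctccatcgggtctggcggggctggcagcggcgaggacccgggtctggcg

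Of the 48 genes, 46 had enough counts to be tested. PSMA8, a testis-specific alpha subunit, and PSMB11, the thymus-specific beta subunit, had 0 counts in all 6 libraries, where 3 counts, the limit that a count of 0 allows, correspond to 0.147 to 0.166 CPM without TMM factors (counting error only). With an adjusted p under 0.05, 42 of the 46 genes were higher in shRBM39, 3 were lower (PSMG4, PSME1 and PSMF1) and PSMB9 was not called. Calls were frequent in this comparison: of the 18243 genes tested, 59.2% were called, 29.2% as higher and 30% as lower. The values of the groups did not overlap for 45 of the 46 genes, of which 42 lay higher, against 63.3% of all tested genes in either direction. Most of the differences were below 1.5-fold, and 16 genes were called higher with a log2 fold change of at least 0.5, which 11.4% of all tested genes reached.

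The median log2 fold change of the 46 genes was 0.42, with a range from -0.29 to 0.79. Over all tested genes the median was -0.01 and the quartiles were -0.32 and 0.28, and 16.2% of them lay above the proteasome median. In single libraries, the median difference of the 46 genes from the shCtrl mean was 0.02, -0.01 and 0.00 (log2) in shCtrl replicates 1 to 3 and 0.41, 0.42 and 0.42 in shRBM39 replicates 1 to 3. Their summed level rose from 4051 ± 58.4 to 5405 ± 38.0 CPM (SD, n = 3). CPM is a share of the library, so fewer cells, less RNA per cell and a change in other genes cannot be told apart. With library totals in place of TMM factors, the median of all genes moved to -0.14 and that of the proteasome genes to 0.30. A change of scaling moves all genes by nearly the same amount. The distance of 0.44 between the medians under both scalings is therefore no check on the rise. The calls over all genes moved from 5327 higher and 5464 lower to 3779 higher and 7370 lower. Under library totals, 38 of the proteasome genes remained called higher and 3 lower.

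**Figure D1:**
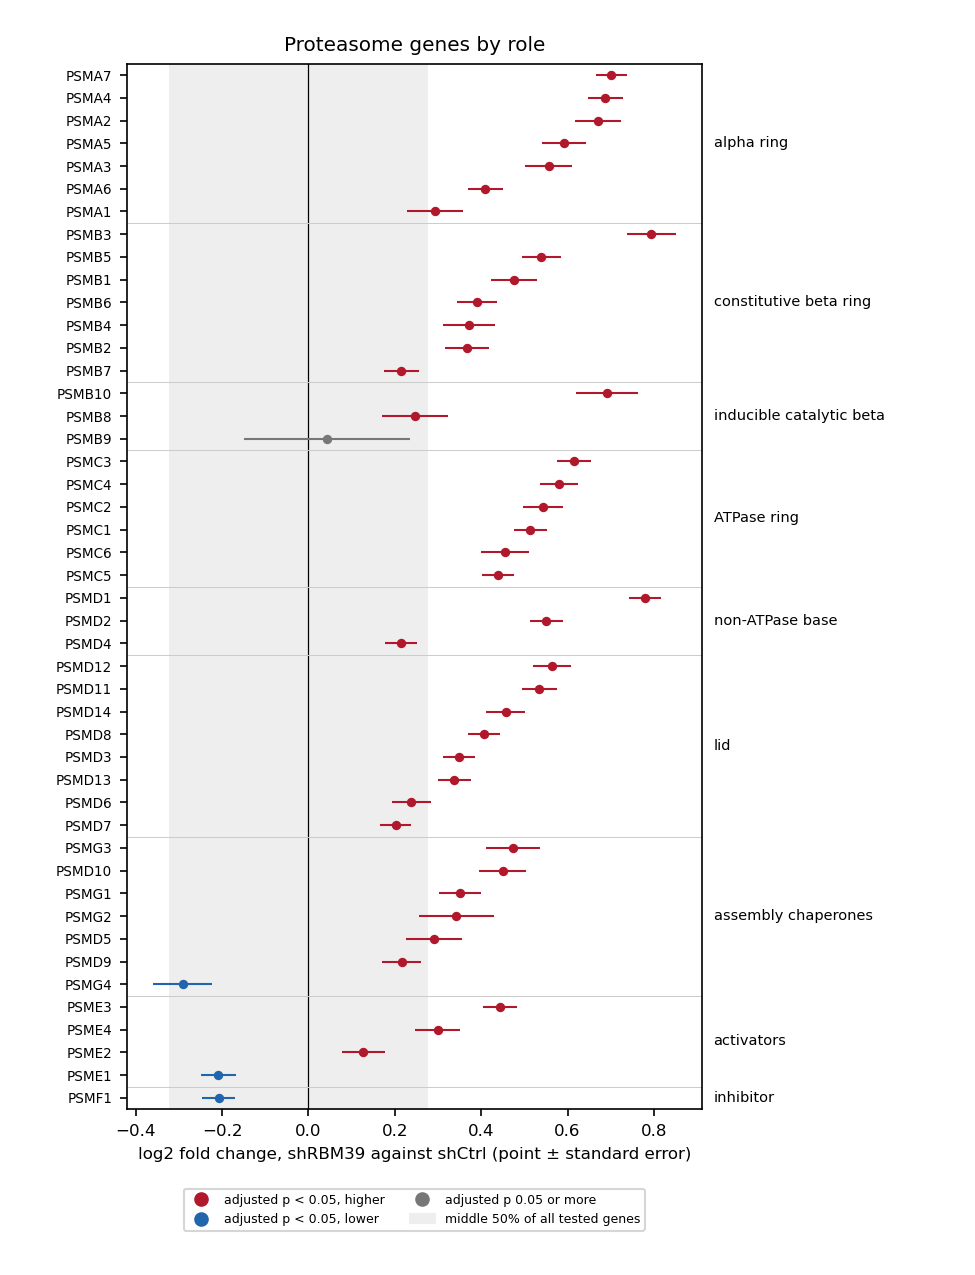
Log2 fold change of each tested proteasome gene, shRBM39 against shCtrl (horizontal axis; point ± standard error, 3 libraries per group), grouped by role, with the middle 50% of all tested genes shaded. All points for the core rings and the regulatory particle lie to the right of 0, and the 3 genes to the left with an adjusted p under 0.05 are PSMG4, PSME1 and PSMF1.

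The rise covered every tested constitutive subunit gene of the core and the regulatory particle that the symbol rule took in. All 31 of these genes were called higher, beside 29.2% of all tested genes. Their median log2 fold change was 0.48, with a range from 0.20 to 0.79. The 15 genes outside this set, the inducible catalytic subunits, chaperones, activators and inhibitor, held all exceptions in the main test. Among the 31, the calls of PSMA1, PSMB7, PSMD6 and PSMD7 were lost in settings other than a test that required a change beyond 0.5 (log2).

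**Figure D2:**
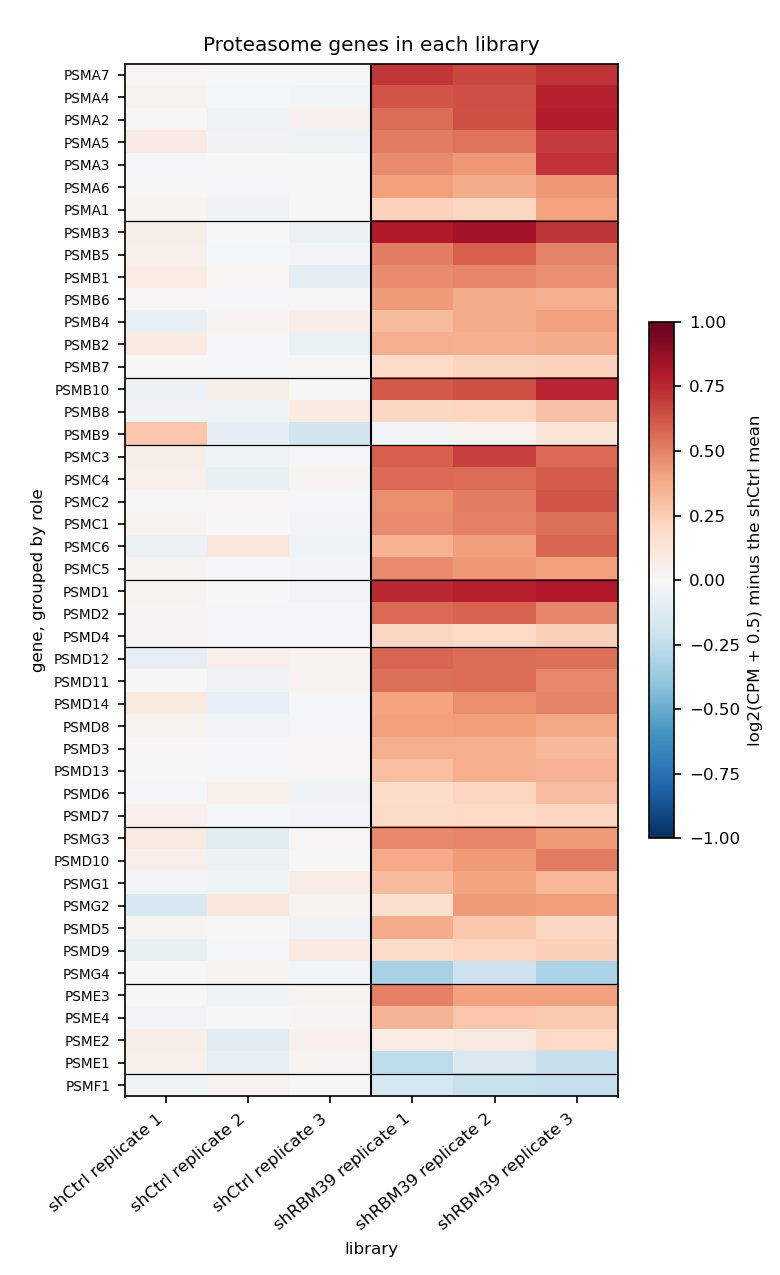
Log2(CPM + 0.5) of each tested proteasome gene in each of the 6 libraries minus its mean in shCtrl (colour scale from -1 to 1), with genes grouped by role as in the plot of fold changes. The 3 shRBM39 columns are alike, with medians of 0.41, 0.42 and 0.42, and the rows of PSMG4, PSME1 and PSMF1 are blue in all 3.

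The alpha ring forms the gated entrance of the core. All 7 tested alpha genes rose, with a median log2 fold change of 0.59, and their summed level went from 632 ± 7.81 to 977 ± 40.6 CPM. PSMA7 (chr20:62136735-62143440) had the largest change of the ring and measured 257, 254 and 254 CPM in shCtrl and 418, 405 and 422 CPM in shRBM39, in the order of the replicate numbers. Its groups lay far apart relative to their spread, at a log2 fold change of 0.70 (SE 0.04, adjusted p = 6.51e-18). The smallest change of the ring was that of PSMA1 (chr11:14504874-14643635), with 21.5, 20.5 and 21.1 CPM in shCtrl and 24.8, 24.4 and 28.0 CPM in shRBM39. Its groups did not overlap, with replicate 3 as the highest of the knockdown libraries, and the log2 fold change was 0.29 (SE 0.06, adjusted p = 0.000219). For PSMA1 the call was lost on log2(RPKM + 1), where the value was 0.14 (adjusted p = 0.0552).

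In the constitutive beta ring, which holds the proteolytic sites and their structural neighbours, all 7 genes rose, with a median of 0.39. The structural subunit PSMB3 (chr17:38752736-38764231) had the highest log2 fold change of all 46 genes. It measured 23.9, 23.0 and 22.0 CPM in shCtrl and 40.2, 41.3 and 37.9 CPM in shRBM39, without overlap. The log2 fold change was 0.79 (SE 0.06, adjusted p = 3.52e-14), which is 1.73-fold.

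The 3 constitutive catalytic subunits rose by unequal amounts. PSMB5, which carries the chymotrypsin-like site and is the main target of bortezomib, had 49.9, 47.6 and 47.3 CPM in shCtrl and 69.1, 73.2 and 68.3 CPM in shRBM39, a log2 fold change of 0.54 (SE 0.05, adjusted p = 2.6e-12). PSMB6, the caspase-like subunit, had 44.9, 44.4 and 44.7 CPM against 60.1, 58.0 and 57.5 CPM, a log2 fold change of 0.39 (SE 0.05, adjusted p = 4.23e-09). PSMB7, the trypsin-like subunit, had 77.4, 76.5 and 77.7 CPM against 88.1, 90.3 and 90.5 CPM, a log2 fold change of 0.22 (SE 0.04, adjusted p = 3.07e-05). None of the 3 pairs of groups overlapped, and PSMB7, the most abundant of them, changed least. The call of PSMB7 depended on the scaling: its log2 fold change was 0.09 with library totals (adjusted p = 0.0514) and 0.07 after a correction for GC content and gene length (adjusted p = 0.108).

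The inducible catalytic subunits, which interferon signalling induces and which alter the peptides offered to class I molecules, did not move as a block. PSMB10, the counterpart of PSMB7, had 13.1, 14.3 and 13.6 CPM in shCtrl and 21.2, 21.5 and 23.5 CPM in shRBM39. Its groups were well separated, at a log2 fold change of 0.69 (SE 0.07, adjusted p = 2.82e-10). Exons of CTC-479C5.12, a gene with 2149 counts over the 6 libraries, overlapped exons of PSMB10 on the same strand. The effect of this overlap on the values of PSMB10 was not tested. PSMB8, the counterpart of PSMB5, had 12.6, 12.5 and 13.8 CPM against 15.0, 15.1 and 16 CPM, a log2 fold change of 0.25 (SE 0.08, adjusted p = 0.00609). This smaller difference did not hold with library totals (0.12, adjusted p = 0.169) or with GC content and gene length corrected for (0.13, adjusted p = 0.144). PSMB9, the counterpart of PSMB6, was barely expressed, with 2.63, 1.93 and 1.77 CPM in shCtrl and 2.04, 2.15 and 2.32 CPM in shRBM39, from 36 to 53 counts per library. The groups of PSMB9 overlapped, the log2 fold change was 0.04 (SE 0.19, adjusted p = 0.863), and its sign differed between settings, with -0.08 under library totals.

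Levels of different genes were compared per length, on the RPKM scale. The deposited RPKM of PSMB8 was 23.7 ± 1.74% of that of PSMB5 in shCtrl and 19.3 ± 1.27% in shRBM39 (SD, n = 3). For PSMB10 relative to PSMB7 the share was 17.1 ± 0.848% in shCtrl and 23.7 ± 1.15% in shRBM39, and for PSMB9 relative to PSMB6 it was 2.22 ± 0.469% and 1.75 ± 0.151%. The libraries of the groups did not overlap for the pairs of PSMB8 and PSMB10, which moved in opposite directions. Over 4 such ratios tested, an exact two-sided permutation test gave p = 0.1 for both of these pairs (adjusted 0.133) and p = 0.2 for PSMB9, and 0.1 is the smallest p that 3 libraries against 3 allow.

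**Figure D3:**
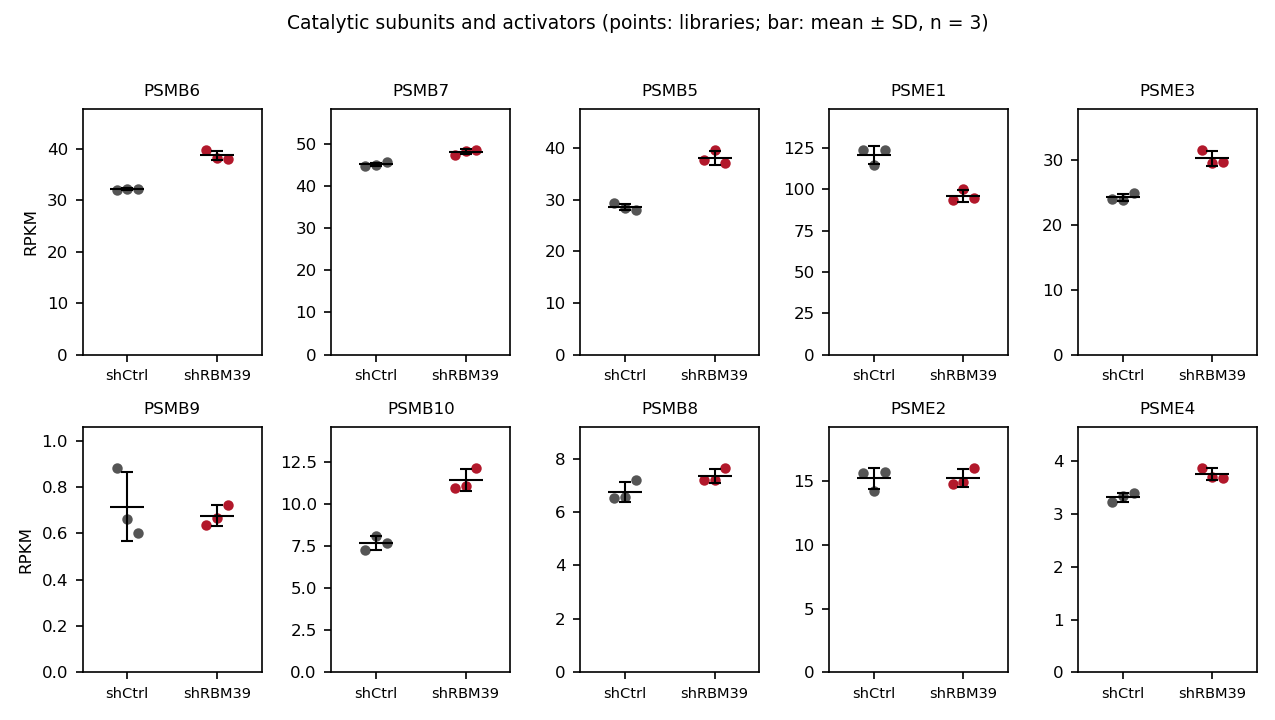
RPKM (vertical axes from 0, a scale of its own for each gene) of the catalytic subunits, with the inducible counterparts of the upper row below them, and of the 4 activators, in shCtrl and shRBM39 libraries (points; bars give mean ± SD, n = 3). PSMB5, PSMB6 and PSMB10 lie clearly higher in shRBM39, PSME1 lower, and PSMB9 and PSME2 overlap on this scale, which carries no TMM factors.

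The ATPase ring, which unfolds substrates and feeds them into the core, varied least among the roles of more than 1 gene. Its 6 genes rose by log2 fold changes from 0.44 to 0.62, and their summed level went from 716 ± 15.5 to 1035 ± 10.9 CPM. PSMC3 (chr11:47418769-47426473) changed most, from 234, 218 and 223 CPM to 341, 361 and 333 CPM, a log2 fold change of 0.62 (SE 0.04, adjusted p = 1.82e-15). PSMC5 changed least, from 201, 194 and 192 CPM to 272, 264 and 261 CPM, a log2 fold change of 0.44 (SE 0.04, adjusted p = 2.23e-12). Neither gene's groups overlapped, and the gap between the groups was many times the spread within them. Exons of FTSJ3, a gene with 54444 counts over the 6 libraries, overlapped exons of PSMC5 on the opposite strand. The effect of this overlap was not tested.

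Of the non-ATPase subunits of the base, PSMD1 (chr2:231056864-231172827), a large scaffold subunit, changed most. It measured 142, 138 and 136 CPM in shCtrl and 234, 239 and 242 CPM in shRBM39, a log2 fold change of 0.78 (SE 0.04) with the smallest adjusted p of the 46 genes, 8.7e-19. PSMD4, a ubiquitin receptor of the particle, changed least of the base, with 154, 149.5 and 150.3 CPM against 175, 174 and 179 CPM. Its groups did not overlap, at a log2 fold change of 0.21 (SE 0.04, adjusted p = 6.91e-06). All 3 genes of the base were called higher, with a median of 0.55.

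The lid, which carries the deubiquitinase PSMD14, rose in all 8 genes, with a median log2 fold change of 0.38. PSMD12, a structural lid subunit, had 55.8, 61.1 and 60.4 CPM in shCtrl and 88.5, 87.0 and 86.8 CPM in shRBM39, a log2 fold change of 0.56 (SE 0.04, adjusted p = 3.66e-13). PSMD7, which pairs with PSMD14, had 342, 327 and 325 CPM against 378, 379.9 and 384 CPM, a log2 fold change of 0.20 (SE 0.04, adjusted p = 1.33e-05). The groups overlapped for neither, but PSMD7 was no longer called once GC content and gene length were corrected for (0.06, adjusted p = 0.125). Exons of AC009120.6, a gene with 22530 counts over the 6 libraries, overlapped exons of PSMD7 on the opposite strand. The effect of this overlap was not tested. Among the lid genes, PSMD14 itself had a log2 fold change of 0.46.

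Assembly chaperones bind intermediates of the core or the base and are not part of the finished particle. Of the 7 genes, 6 rose and PSMG4 fell. PSMG3, which works with PSMG4 in building the alpha ring, had 23.1, 20 and 21.8 CPM in shCtrl and 30.4, 30.5 and 29.2 CPM in shRBM39, a log2 fold change of 0.47 (SE 0.06, adjusted p = 4.24e-08). PSMG4 (chr6:3231403-3303373) went the other way, with 19.9, 20.2 and 19.5 CPM against 15.8, 17.1 and 15.9 CPM, a log2 fold change of -0.29 (SE 0.07, adjusted p = 0.000469). The partners thus moved in opposite directions without overlap of the groups in either. Exons of TUBB2B and SLC22A23 on the opposite strand overlapped exons of PSMG4, and whether reads were counted by strand is not given in the sources used here.

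Activators cap the core in place of the regulatory particle and open its gate. PSME1 and PSME2 form 1 ring, the interferon-inducible activator of the cytosol, PSME3 forms a ring of its own in the nucleus, and PSME4 acts as a single large chain. PSME1 (chr14:24136158-24138967) had 214, 195 and 210.3 CPM in shCtrl and 173, 187 and 176 CPM in shRBM39, a log2 fold change of -0.21 (SE 0.04, adjusted p = 4.25e-05). PSME2 had 54.4, 48.6 and 53.8 CPM against 55.1, 55.9 and 60.1 CPM, a log2 fold change of 0.13 (SE 0.05, adjusted p = 0.0268). The fall of PSME1 held in every setting tried other than the test that required a change beyond 0.5 (log2), whereas the call of PSME2 was lost in DESeq2 (adjusted p = 0.0837), with library totals (0.00, adjusted p = 0.951), once GC content and gene length were corrected for (0.02, adjusted p = 0.694), without shCtrl replicate 2 (0.08, adjusted p = 0.228) and without shRBM39 replicate 3 (0.09, adjusted p = 0.146). On the RPKM scale PSME1 was 794 ± 10.1% of PSME2 in shCtrl and 631 ± 41.1% in shRBM39, without overlap (exact two-sided permutation p = 0.1, adjusted 0.133). Exons of EMC9 and of RNF31 on the opposite strand overlapped exons of PSME1 and of PSME2, respectively. None of the settings addressed these overlaps.

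The other activators rose. PSME3 had 120.0, 117 and 123 CPM in shCtrl and 169.6, 159.5 and 159 CPM in shRBM39, a log2 fold change of 0.44 (SE 0.04, adjusted p = 7.17e-12). For PSME4 the values were 32.0, 32.5 and 33.2 CPM against 41.3, 39.6 and 39.2 CPM, a log2 fold change of 0.30 (SE 0.05, adjusted p = 6.12e-06). PSMF1 (chr20:1113263-1189415), an inhibitor that competes with activators for the ends of the core in vitro, fell. It had 140.2, 148 and 144 CPM in shCtrl and 128, 124 and 123 CPM in shRBM39, a log2 fold change of -0.21 (SE 0.04, adjusted p = 2.21e-05). Its groups did not overlap, and the fall is about the same in size as that of PSME1.

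Subunits that are present in equal numbers in the particle had very unequal RNA levels. Among the alpha genes the mean RPKM in shCtrl ran from 6.64 for PSMA1 to 152 for PSMA7, a 22.9-fold range. In the ATPase ring it ran from 5.31 for PSMC6 to 103 for PSMC3, and in the lid from 7.59 for PSMD6 to 126 for PSMD7. The highest levels of all were those of PSMA7 (152), PSMD7 (126), PSME1 (121) and PSMC3 (103), and the lowest were those of PSMG4 (1.99) and PSMB9 (0.715). PSMD7 at 126 ± 2.45 and PSME1 at 121 ± 5.2 did not differ beyond their spread in shCtrl. In shRBM39 PSMC3, at 145 ± 5.92 RPKM, stood above PSMD7, at 133 ± 1.08, and PSME1, at 96.1 ± 3.57. RPKM divides by the length of all merged exons of a symbol, so a gene with long rare isoforms is understated. Exons of PSMA1, the low end of the alpha range, also shared bases on the same strand with RP11-140L24.4, which held 3096 counts. The effect of this overlap on the level of PSMA1 was not tested.

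Overlapping genes and copies limit single values. Compared exon by exon, another gene with counts shared at least 1 base of exon with 7 of the genes on the same strand (PSMA1, PSMA2, PSMA6, PSMB9, PSMB10, PSMD9 and PSMF1) and with 18 on the opposite strand. The 23 tested genes that shared no exon base with such a gene were all called higher, with a median log2 fold change of 0.48. The genes called lower, PSMG4, PSME1 and PSMF1, all shared exon bases with such a gene, as did PSMB9 and many genes called higher. For PSMF1 that gene, RP4-545L17.12, held 36 counts over the 6 libraries, beside 2129 to 3148 counts of PSMF1 per library. Whether the overlaps had a part in the values of any of these genes was not tested. The table also listed 31 symbols of proteasome pseudogenes, which held 0.139% as many counts as the proteasome genes, and the treatment of reads that fit several places is not given in the sources used here.

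A match to TGACNNNGC was found in the promoter windows of 15 of the 42 genes (35.7%), against 16.1% of all 27305 genes with a window. The corresponding shares were 47.6% and 39.7% for CCAAT and 7.14% and 6.05% for TGACTCA, whose first letters can be those of a TGACNNNGC match. Of the 15 tested genes with a TGACNNNGC match, 13 were higher in shRBM39, PSME1 was lower and PSMB9 was not called, with a median log2 fold change of 0.35. Of the 25 without one, 23 were higher and 2 lower, with a median of 0.45. Most genes were called higher in both sets, and whether the motif had a part in the changes was not tested. A match is a description of the letters and not a bound site.

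Partner genes of the proteasome were examined from a list of 33 symbols outside the rule. DDI1 had 0 counts in all libraries, and of the 32 tested, 16 were higher, 8 lower and 8 not called, with a median log2 fold change of 0.09. Over all tested genes, 29.2% were called higher and 30% lower. With library totals 10 of the partner genes were called higher and 12 lower, so the balance of directions in this list depended on the scaling. The calls over all genes shifted too, to 3779 higher and 7370 lower. The subunits and assembly factors were nearest to the proteasome genes, with 4 of 5 higher. POMP, the maturation factor of the core, had 10.9, 8.89 and 9.88 CPM in shCtrl and 17, 17.1 and 19.6 CPM in shRBM39, a log2 fold change of 0.86 (SE 0.09, adjusted p = 1.05e-10). PAAF1, a chaperone of the ATPases, fell from 20.2, 22.2 and 22.8 CPM to 19, 17.8 and 18 CPM, a log2 fold change of -0.25 (SE 0.07, adjusted p = 0.00197). The groups of both were separate. The value of POMP was above the highest of the 46 proteasome genes, 0.79 (SE 0.06) for PSMB3, by a margin within these errors that was not tested.

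**Figure D4:**
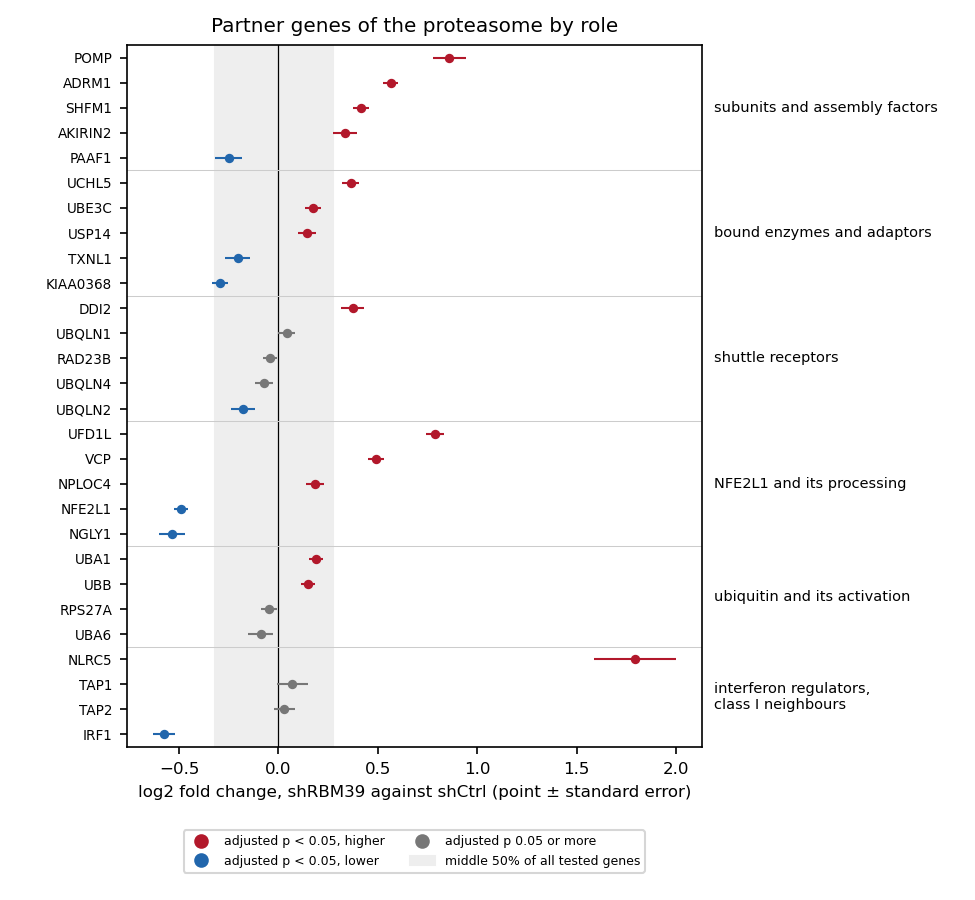
Log2 fold change of 28 of the 32 tested partner genes, shRBM39 against shCtrl (horizontal axis; point ± standard error, 3 libraries per group), grouped by role, with the middle 50% of all tested genes shaded. Directions are mixed, from -0.58 for IRF1 to 1.79 for NLRC5, and NFE2L1 lies on the left at -0.49.

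NFE2L1 is made as a membrane protein of the endoplasmic reticulum, extracted by VCP with UFD1 and NPLOC4, deglycosylated by NGLY1 and cleaved by DDI2 before it reaches the nucleus. NFE2L1 fell from 389.6, 398 and 391 CPM in shCtrl to 282, 281 and 277 CPM in shRBM39, a log2 fold change of -0.49 (SE 0.04, adjusted p = 6.05e-14). NGLY1 fell from 26.8, 25.7 and 27.0 CPM to 17.1, 17.8 and 20 CPM, a log2 fold change of -0.53 (SE 0.07, adjusted p = 1.53e-08). UFD1, listed as UFD1L, rose from 44.2, 44.5 and 44.3 CPM to 75.4, 78.6 and 75.8 CPM, a log2 fold change of 0.79 (SE 0.04, adjusted p = 6.04e-17). The steps of the pathway thus differed in direction, with the factor and its deglycosylase lower and the extraction complex higher, VCP with a log2 fold change of 0.49 and NPLOC4 with 0.18. The call of NPLOC4 did not hold with library totals (0.06, adjusted p = 0.28). DDI2, which is also a shuttle receptor, had 33.1, 34.9 and 29.9 CPM against 43.2, 39.3 and 44.3 CPM, a log2 fold change of 0.37 (SE 0.06, adjusted p = 9.08e-07).

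The table of splicing events held 1582 records selected by the authors for a difference between its groups, without a key that says which of its groups 1 and 2 is the knockdown. It held 1 record for a proteasome gene, mutually exclusive exons of PSME3, with 1 to 5 event reads per library and no form above 4 reads, which is too few to describe. Events outside the selection were not analysed here. Among the partner genes, NFE2L1 and UCHL5 each had a skipped-exon record. The NFE2L1 exon is shown because its inclusion sets apart the longer form of the factor, called TCF11. It is exon 4 of 6 of the canonical transcript, 90 bases long and coding throughout, and the capitals below mark it within the GRCh38 sequence.
NFE2L1 (chr17:48057032-48057121 with 30 bases on each side, plus strand): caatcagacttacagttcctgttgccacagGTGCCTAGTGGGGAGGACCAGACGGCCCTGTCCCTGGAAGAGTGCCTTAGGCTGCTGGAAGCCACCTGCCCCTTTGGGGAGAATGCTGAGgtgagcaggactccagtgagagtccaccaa
Its inclusion level was 19.2%, 24.9% and 20% in the 3 libraries of group 1 and 38.9%, 39.1% and 45.2% in those of group 2, from 78 to 194 event reads per library. The libraries of group 2 were all higher. Since records were selected for such a difference, no test was made. In UCHL5 the levels were 35.7% to 41.2% in group 1 and 52.1% to 65.5% in group 2. They rest on few reads, 30 to 40 event reads per library in group 1 and 19 or 20 in group 2.

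Other partners bound to the particle were also mixed. UCHL5, a deubiquitinase of the base, had a log2 fold change of 0.36 (SE 0.04, adjusted p = 7.36e-09), and KIAA0368, which encodes the adaptor ECPAS, had -0.29 (SE 0.04, adjusted p = 1.86e-07). Of the 6 tested shuttle receptors, which carry ubiquitin-tagged proteins to the particle, DDI2 rose and UBQLN2 fell, from 27.6, 30.2 and 27.5 CPM to 25, 24.6 and 25.8 CPM (log2 fold change -0.18, SE 0.06, adjusted p = 0.00996). The call of UBQLN2 was lost without shCtrl replicate 2 (-0.13, adjusted p = 0.0888). Of the 4 that were not called, UBQLN1 had a log2 fold change of 0.04 (adjusted p = 0.434), RAD23B of -0.04 (adjusted p = 0.325) and UBQLN4 of -0.07 (adjusted p = 0.17). With library totals UBQLN1 was at -0.08, and RAD23B and UBQLN4 were called lower.

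Of the 6 genes for ubiquitin and its activating enzymes, 3 were called higher, 1 lower and 2 not, beside 29.2% higher and 30% lower of all tested genes. RPS27A, which encodes a fusion of ubiquitin with a ribosomal protein, was not called (-0.05, adjusted p = 0.327), though with library totals it was called lower (-0.17, adjusted p = 0.000252). Of the activating enzymes, UBA1 rose from 220.4, 214 and 215 CPM to 246, 248 and 246 CPM, a log2 fold change of 0.19 (SE 0.04, adjusted p = 3.59e-05), a call that was lost with library totals (0.06, adjusted p = 0.109). UBA6 was not called (-0.09, adjusted p = 0.203), and was called lower with library totals (-0.21, adjusted p = 0.00264) and without shCtrl replicate 2 (-0.16, adjusted p = 0.036).

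Regulators of the immunoproteasome did not share a direction. NLRC5, the transactivator of class I genes, rose from 0.743, 1.03 and 1.18 CPM to 3.41, 3.95 and 2.99 CPM, a log2 fold change of 1.79 (SE 0.21, adjusted p = 3.06e-09), and remained low in level. IRF1, an interferon-induced activator, fell from 36.3, 38.5 and 36.4 CPM to 24.9, 24.7 and 25 CPM, a log2 fold change of -0.58 (SE 0.06, adjusted p = 4.65e-11). The peptide transporter genes TAP1 and TAP2, which lie beside PSMB9 and PSMB8, were not called, at 0.07 (adjusted p = 0.453) and 0.03 (adjusted p = 0.645), with overlapping groups and values of -0.05 and -0.09 under library totals.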

How the data were processed

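RNA-seq libraries of SW480 cells were prepared with a stranded mRNA kit by the study, 3 with shCtrl and 3 with shRBM39. Groups and replicate numbers were taken from the sample titles, and the NC columns were taken as shCtrl, since the labels give no other control. Raw counts for each gene symbol were deposited by the authors. The submitters' processing notes name Trimmomatic 0.36, STAR 2.5.3a, featureCounts of Subread 1.5.1, edgeR 3.12.1 and GRCh38. Whether molecular identifiers were collapsed or strand was used in counting is not given in the sources used here, which bears on abundant and overlapping genes. The deposited RPKM values could be recomputed from these counts (largest relative difference 1.2e-13) and carry no TMM factors. Other deposited values, the inclusion and skipping reads of selected splicing events, come from rMATS as the authors ran it; their p-values and differences were not used.

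The main test was the two-sided quasi-likelihood F test of edgeR 4.0.16 under R 4.3.3, after filterByExpr and TMM scaling and with no covariate beside group. Its p-values were adjusted over 18243 genes by the Benjamini-Hochberg method, and a gene was called at an adjusted p under 0.05. The biological coefficient of variation was 0.035. The fits were tried on simulated counts, with known changes put into few genes, as many raised as lowered. Far more genes were called in the data, so the simulation could not check the scaling. DESeq2 1.42.0, limma 3.58.1 on log2(RPKM + 1) and log2(RPKM + 0.1), other scalings and filters, a GC and length correction (splines with 5 degrees of freedom), a replicate block and each library left out were alternatives. Role sums are in CPM with SD. Members named with values per library were the catalytic subunits, activators and inhibitor, the genes with the highest and lowest log2 fold change of each other role and those not called; partners were named by the same extremes and those not called. Some partners are in the counts over the list but are not reported here by name or value. NFE2L1, VCP, NPLOC4 and PSMD14 were added after their values were seen. The members and lists were chosen with earlier results of these data known. Promoter windows are RefSeq sequences, and exon coordinates were compared with GENCODE v44, where 97% of 2782 member exon records were identical.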

Additional observations from a re-analysis of the deposited data

How the results depend on the processing

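The counts of 45 called proteasome genes, 42 higher and 3 lower, stayed within 1.5 times under every alternative other than a test against an absolute log2 fold change of 0.5, which called 7 proteasome genes (7 higher and 0 lower), 3 partner genes in place of 24, and 2232 genes in place of 10791 over all. The median of the proteasome genes was 0.39 with upper-quartile scaling, 0.30 with library totals, 0.28 on log2(RPKM + 1), 0.30 on log2(RPKM + 0.1) and 0.35 after the GC and length correction, with or without the block, and 0.41 to 0.44 with each library left out. Of the 46 tested genes, 37 kept their direction and call in every setting other than the test against 0.5, and 9 did not: PSMA1, PSMB7, PSMB8, PSMB9, PSMD6, PSMD7, PSMD9, PSMG2 and PSME2. Over 74 tested genes of both lists, library totals ended 9 calls, added 4 and turned 4 signs, the GC and length correction ended 6, added 3 and turned 3, and DESeq2 ended 3. The record of a proteasome gene in the splicing table went from 1 to 0 with at least 20 event reads required in every library.

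Signs turned only for genes with small values. With library totals, log2(RPKM + 1) and log2(RPKM + 0.1) in this order, the log2 fold change was -0.080, -0.030 and -0.057 for PSMB9, -0.083, -0.075 and -0.083 for UBQLN1, -0.053, -0.039 and -0.050 for TAP1, and -0.094, -0.080 and -0.092 for TAP2. After the GC and length correction, without and with the block, it was -0.096 and -0.096 for PSMB9, 0.0029 and 0.0018 for UBA6, and -0.010 and -0.010 for TAP2. With upper-quartile scaling TAP2 was at -0.0035. With each library left out, PSMB9 ran from -0.063 to 0.23, below 0 without shCtrl replicate 2, shCtrl replicate 3 or shRBM39 replicate 3. The cause of these changes was not tested.

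The replicate numbers did not pair the samples: libraries with the same number had correlations of 0.005, -0.05 and 0.04 in their deviations from the group means over 12009 genes. With the replicate number as a block, 45 proteasome genes were called, as without it, and 10810 genes over all.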

Other observations

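Of 5 antisense transcripts named after proteasome genes, 3 were called lower in shRBM39 while the gene they are named after was called higher. Calls were frequent over all tested genes as well, with 59.2% called and 30% called lower. PSMA3-AS1 measured 29.0, 30.5 and 29.9 CPM in shCtrl and 21.6, 19.9 and 20.8 CPM in shRBM39, a log2 fold change of -0.52 (SE 0.06, edgeR adjusted p = 3.73e-09), beside a value of 0.56 for PSMA3. PSMD5-AS1 fell from 10.9, 12.6 and 10.6 CPM to 6.17, 6.79 and 6.03 CPM, a log2 fold change of -0.85 (SE 0.10, adjusted p = 5.21e-09), beside 0.29 for PSMD5. PSMG3-AS1 fell from 3.22, 2.59 and 2.85 CPM to 0.917, 1.28 and 1.24 CPM, a log2 fold change of -1.34 (SE 0.20, adjusted p = 9.02e-07), beside 0.47 for PSMG3. The groups of all 3 were separate. PSMD6-AS2 (-0.38, SE 0.29, adjusted p = 0.266) and PSMB8-AS1 (0.23, SE 0.17, adjusted p = 0.233) were low and not called. Exons of PSMG3-AS1, PSMD6-AS2 and PSMB8-AS1 shared bases with exons of the gene on the other strand, and such reads cannot be told apart if strand was not used in counting. PSMA3-AS1 and PSMD5-AS1 shared no exon base with PSMA3 or PSMD5.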
